A study of Mus musculus with 6 samples.

Results

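Collagen IV, the nidogens, perlecan and collagen XVIII are the non-laminin core of the basement membrane, and their 10 mouse genes are Col4a1 to Col4a6, Nid1, Nid2, Hspg2 and Col18a1. They were chosen by gene symbol from the array's annotation, with earlier results of these data known. All 10 of these genes are on the array, among 18193 genes with a probe set that names a single gene. They were measured in 2 tissue layers of embryonic day 13 mice (Theiler stage 21), the epithelium and the mesenchyme of the bladder neck and urethra. All embryos were wild-type and of the strain FVB/N, their sex is unknown, and samples were not pooled. The dissected tissue was treated with trypsin, its layers were separated by hand, and their RNA was amplified in 2 rounds for Affymetrix mouse arrays, 3 for epithelium (numbered 1, 2 and 5) and 3 for mesenchyme (1, 2 and 3). Since no label ties an array to an embryo, p-values measure only the spread between these samples, which may be technical.

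The basement membrane is the sheet on which an epithelium rests, and it also wraps capillaries, muscle fibres and Schwann cells. Collagen IV forms its covalent network from trimers of fixed make-up. The alpha 1 and alpha 2 chains make the trimer found in nearly every basement membrane, the alpha 3, 4 and 5 chains make that of the mature kidney glomerulus, and the alpha 5 and 6 chains make that of smooth muscle and of epithelia such as skin. Nidogens link the laminin network to collagen IV, perlecan (Hspg2) carries heparan sulfate chains that hold growth factors and water, and collagen XVIII is a heparan sulfate collagen whose C-terminal fragment is endostatin. In several organs mesenchymal cells are known to supply part of the basement membrane that lies under an epithelium, nidogen above all.

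The 6 collagen IV genes lie head to head in pairs, so the sequence around their starts is shown for the pairs that were bright on the arrays. By the RefSeq promoter table (build GRCm38.p6), which holds 9 starts of 8 of the 10 genes, the start of Col4a1 on the minus strand and that of Col4a2 on the plus strand are 21 bases apart and overlap. The bases from one start to the other (chr8:11312805-11312826, plus strand) lie downstream of both starts and contain a GC box, GGGCGG, in capitals here.
Col4a1 and Col4a2: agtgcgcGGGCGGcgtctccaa
The starts of Col4a6 (minus strand) and Col4a5 (plus strand) are 1343 bases apart on the X chromosome, and the stretches before them are printed from 250 bases before the listed start up to the first annotated transcribed base (chrX:141474096-141474326, minus strand, and chrX:141475169-141475369, plus strand). That of Nid1, the largest difference among genes with an entry, follows (chr13:13437352-13437601, plus strand). Capitals mark matches on either strand to the GC box GGGCGG, the CCAAT box CCAAT and the TATA box TATAAA, none of which overlap here.
Col4a6: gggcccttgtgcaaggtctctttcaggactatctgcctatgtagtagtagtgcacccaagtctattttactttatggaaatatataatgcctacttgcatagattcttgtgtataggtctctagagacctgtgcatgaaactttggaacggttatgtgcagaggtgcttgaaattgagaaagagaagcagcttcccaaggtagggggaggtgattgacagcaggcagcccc
Col4a5: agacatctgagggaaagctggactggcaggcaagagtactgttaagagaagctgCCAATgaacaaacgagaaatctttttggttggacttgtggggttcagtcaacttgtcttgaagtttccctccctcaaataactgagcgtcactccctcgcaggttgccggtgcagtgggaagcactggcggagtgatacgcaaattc
Nid1: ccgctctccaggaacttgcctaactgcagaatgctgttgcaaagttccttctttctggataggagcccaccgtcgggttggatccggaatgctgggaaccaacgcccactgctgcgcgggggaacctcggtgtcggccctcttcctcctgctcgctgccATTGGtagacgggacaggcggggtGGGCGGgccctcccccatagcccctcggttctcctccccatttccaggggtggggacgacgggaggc
Over the 250 bases before each of 32851 listed starts, 32.7% held the GC box, 33.8% the CCAAT box and 12.4% the TATA box, against 6, 5 and 0 of the 9 such windows of these genes. The GC boxes of Col4a5 and Col4a6 lie outside the stretches printed. The 250 bases before the starts of Col4a1 and Col4a2 were 74.4% and 73.6% G or C, above 95.4% and 94.7% of all windows. Those before Col4a5 and Col4a6 were 54% and 47.6%, above 55.2% and 32.4%. A match is a description of the letters and no evidence of a bound factor.

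Values below are normalized signals, that is deposited signal after an offset of 16, log2, quantile normalization over the 6 arrays and the way back to a linear scale. Differences are log2, epithelium minus mesenchyme, so a positive one is higher in epithelium, with the standard error (SE) and adjusted p of limma fitted to 13717 genes (Benjamini-Hochberg, threshold 0.05). The signals of different probe sets are not on a common scale, so the levels of different genes are not ranked as amounts of RNA. Array medians of the deposited signal lay between 126 and 254. The array labelled mesenchyme 1 stood apart: across genes, which are not independent, it correlated at 0.755 and 0.784 with the other mesenchymal arrays, which correlated at 0.981. The summed signal of 5 liver markers was 211 to 1069 on 5 arrays and 201120 on mesenchyme 1, and that of 12 epithelial markers was 230020 to 280830 on the epithelial arrays, 86834 on mesenchyme 1, 17176 on mesenchyme 2 and 3173 on mesenchyme 3. Over 6 arrays 4 of the 12 epithelial markers passed, and all 12 without mesenchyme 1, each time higher in epithelium. Of all tested genes 1.95% and 6.36% passed in that direction. The difference of each of the 10 genes is therefore given with and without mesenchyme 1.

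The collagen IV genes split between the layers, and the nidogens did not. Nid1, Nid2, Col4a1 and Col4a2 were higher in mesenchyme, Col4a6 was higher in epithelium, and Col4a5 and Col18a1 had all epithelial arrays above all mesenchymal ones without passing the threshold. Of the 10 genes, 9 passed the filter on dim signals (Col4a3 did not). Of the 9, 5 passed the test, 1 as higher in epithelium and 4 as higher in mesenchyme, where 5.98% of all tested genes passed, 1.95% and 4.03% in those directions. Without mesenchyme 1, 8 were tested, of which 6 passed, 2 as higher in epithelium and 4 in mesenchyme, against 14.5%, 6.36% and 8.16% of all genes. The 1 in epithelium became 0 without epithelium 1, epithelium 5, mesenchyme 2 or mesenchyme 3, and the 4 in mesenchyme became 1 without epithelium 1 and 2 without any of the other 3. The arrays of the layers did not overlap for 7 of the 9, 3 with epithelium above and 4 with mesenchyme above, against 28.7% of all tested genes (15.5% and 13.2%). Without mesenchyme 1 they did not overlap for 7 of the 8 (3 and 4), against 45.4% of all genes (23.1% and 22.3%). The median difference of the 9 was -0.05, and that of all tested genes 0.12.

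**Figure D1:**
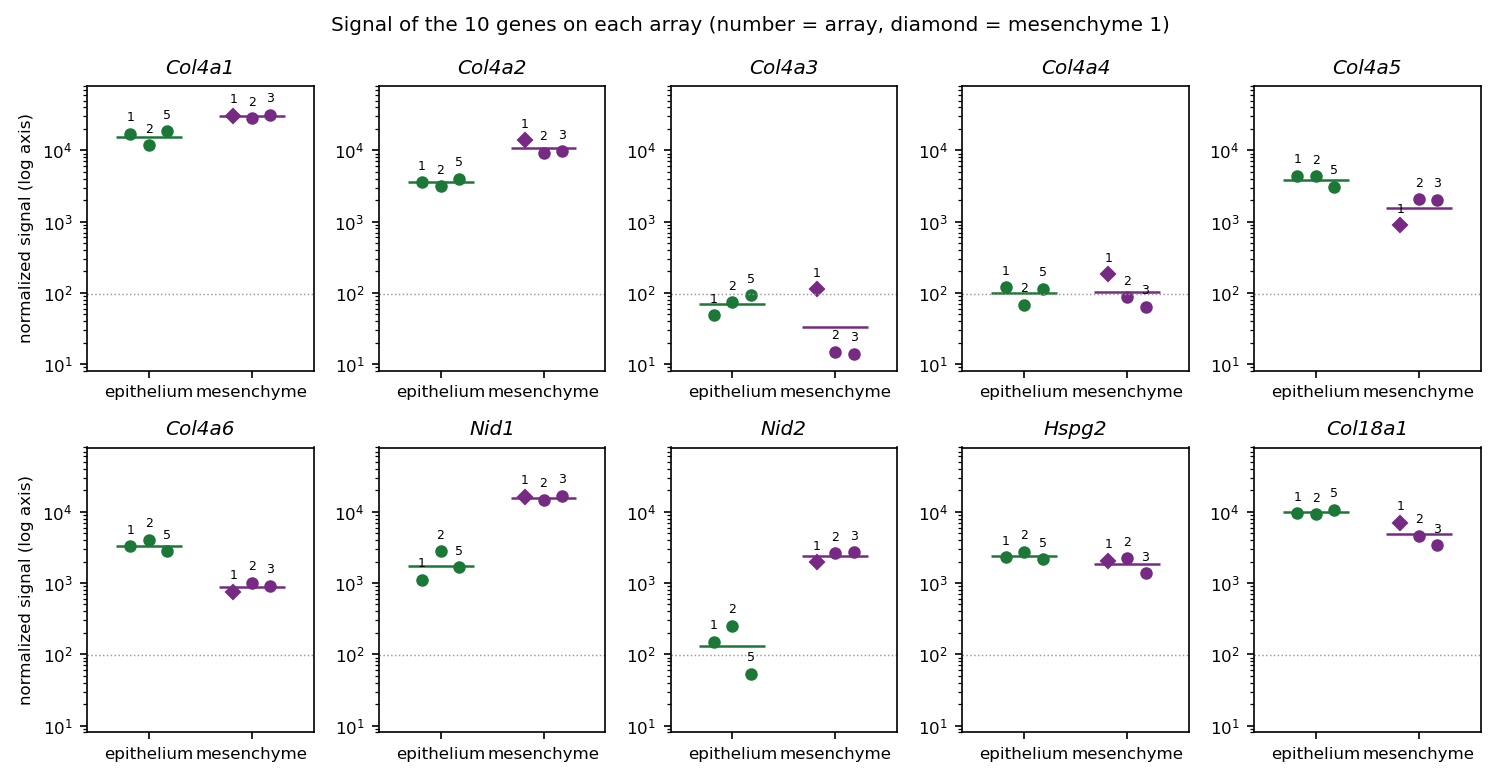
Normalized signal (log axis) of the brightest probe set of each gene on each array, with the epithelial arrays on the left and the mesenchymal ones on the right. Horizontal bars are means of the log2 values (n = 3), the dotted line is the filter on dim signals (96.3) and the diamond is mesenchyme 1. Nid1 and Nid2 show the widest gaps between layers, and Col4a3 and Col4a4 lie around or below the dotted line.

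Nid2, the second nidogen of mammals, had the largest difference of the 10 genes. It read 151, 251 and 53.5 on epithelium 1, 2 and 5, against 1963, 2608 and 2728 on mesenchyme 1, 2 and 3. Every mesenchymal array lay above every epithelial one, and epithelium 5 lay below the filter level of 96.3. The difference was -4.06 ± 0.530 (SE, n = 3 arrays per layer, limma adjusted p = 0.00835), a 16.6-fold excess in mesenchyme, and -4.30 ± 0.554 (adjusted p = 0.003) without mesenchyme 1. The call ended without epithelium 1 (-4.15, adjusted p = 0.0528) and held with any other array left out. Nid2 has a single probe set here, of the kind that can match several transcripts of 1 gene.

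Nid1, the nidogen of most basement membranes, read 1117, 2787 and 1669 on the epithelial arrays, against 16251, 14664 and 16704 on the mesenchymal arrays. The 3 mesenchymal arrays lay close together (SD 0.0990 on the log2 scale), while the epithelial ones spread more (SD 0.655). The difference was -3.18 ± 0.357 (adjusted p = 0.00552), a 9.07-fold excess in mesenchyme, and -3.19 ± 0.391 (adjusted p = 0.00251) without mesenchyme 1. The call held with each of the 6 arrays left out in turn, at adjusted p of 0.00251 to 0.0364. Both other probe sets of Nid1 lay below the filter, at 2.1 to 35.4 on the epithelial arrays and 7.0 to 157 on the mesenchymal arrays, and neither passed (-0.52 and -1.45).

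Col4a2, which contributes 1 chain to the common trimer, read 3584, 3153 and 3987 on the epithelial arrays, against 13904, 9246 and 9727 on the mesenchymal arrays. Mesenchyme 1 was the highest of the 6 arrays, and the groups did not overlap. The difference was -1.59 ± 0.259 (adjusted p = 0.0156), a 3.02-fold excess in mesenchyme, and -1.42 ± 0.217 (adjusted p = 0.00576) without mesenchyme 1. The call ended with any of 4 other arrays left out: epithelium 1 (adjusted p = 0.0865), epithelium 5 (0.0614), mesenchyme 2 (0.0657) and mesenchyme 3 (0.0587), with differences of -1.60 to -1.71. It also ended with median centring (-1.43, adjusted p = 0.0642).

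Col4a1, its partner in that trimer, was bright in both layers. It read 16990, 11828 and 18614 on the epithelial arrays, against 30382, 27990 and 31403 on the mesenchymal arrays. The groups did not overlap, and the fold was the smallest of the 5 that passed. The difference was -0.94 ± 0.205 (adjusted p = 0.0413), a 1.92-fold excess in mesenchyme, and -0.92 ± 0.217 (adjusted p = 0.0316) without mesenchyme 1. The call ended without the filter (adjusted p = 0.0579), without a variance trend (0.125), without normalization (-0.78, 0.104), with median centring (-0.61, 0.298) and with the mean of both probe sets (-0.74, 0.203). It also ended without epithelium 1 (0.137), epithelium 5 (0.0789), mesenchyme 2 (0.133) or mesenchyme 3 (0.137). The second probe set read 1929, 1706 and 2544 on the epithelial arrays and 4567, 1685 and 3295 on the mesenchymal arrays, which overlapped (-0.53 ± 0.403, adjusted p = 0.608 over all single-gene probe sets, of which 2.49% passed, and 6.59% without mesenchyme 1).

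Col4a6, a chain of the alpha 5 and 6 trimer, was the gene that passed as higher in epithelium. It read 3284, 4051 and 2806 on the epithelial arrays, against 755, 1006 and 915 on the mesenchymal arrays. The groups did not overlap, and the lowest epithelial array stood clear of the highest mesenchymal one. The difference was 1.90 ± 0.301 (adjusted p = 0.015), a 3.72-fold excess in epithelium, and 1.82 ± 0.265 (adjusted p = 0.00478) without mesenchyme 1. The call ended with median centring (1.93, adjusted p = 0.062) and with the mean of both probe sets (1.44, 0.0759), and without epithelium 1 (0.0936), epithelium 5 (0.06), mesenchyme 2 (0.0666) or mesenchyme 3 (0.0599). The dimmer probe set read 744, 639 and 231 on the epithelial arrays and 161, 317 and 256 on the mesenchymal arrays, which overlapped (0.98 ± 0.566, adjusted p = 0.504).

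Col4a5, the chain shared by both tissue-restricted trimers, read 4373, 4357 and 3061 on the epithelial arrays, against 883, 2069 and 2020 on the mesenchymal arrays. All epithelial arrays lay above all mesenchymal ones, but mesenchyme 1 lay 2.29-fold below the other 2 mesenchymal arrays. The difference of 1.32 ± 0.409 did not pass (adjusted p = 0.125, 95% interval 0.36 to 2.28), nor did 0.94 ± 0.264 without mesenchyme 1 (adjusted p = 0.0608, interval 0.31 to 1.56). The second probe set gave 1.53 ± 0.456 (adjusted p = 0.168), again without overlap of the layers.

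Col4a3 and Col4a4, whose chains mark the mature glomerulus, were dim in both layers. Col4a3 read 48.7, 74.2 and 92.2 on the epithelial arrays, against 113, 14.9 and 14.04 on the mesenchymal arrays, with mesenchyme 1 the highest of all. It lay below the filter and has no adjusted p there, and in the fit without a filter its difference was 0.80 ± 0.654 (adjusted p = 0.595), or 1.45 ± 0.430 (adjusted p = 0.0909) without mesenchyme 1. Its other probe set ran the other way at -0.49 ± 0.492 (adjusted p = 0.696). Col4a4 read 119, 68.2 and 113 on the epithelial arrays, against 182, 86.5 and 63.99 on the mesenchymal arrays, which overlapped (-0.05 ± 0.549, adjusted p = 0.971, interval -1.33 to 1.24). Without mesenchyme 1 it fell under the filter, with a difference of 0.33 ± 0.452 (adjusted p = 0.756 in the fit without a filter). Another Col4a4 probe set held 7.6 to 49.5 on 5 arrays and 2593 on mesenchyme 1. On mesenchyme 1 the 6 kidney markers, 2 of them under the filter, summed to 12304 (4719 to 8413 on the other arrays). Of these, Podxl (6228), Umod (2350) and Slc34a1 (498) were highest on mesenchyme 1, and Nphs1, Synpo and Wt1 were not. Podxl read 3128 to 4717 on the other arrays, Umod 6.1 to 80.0 and Slc34a1 58.1 to 135. The 6 lung markers, 3 of them under the filter, summed to 39611 (1001 to 5945), and the 5 epidermal ones to 144180 (3280 to 31250). The part of such tissues in the value of 2593 was not tested.

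Col18a1 and Hspg2 encode the heparan sulfate proteoglycans of the set, and neither passed over 6 arrays. Col18a1 read 9610, 9222 and 10630 on the epithelial arrays, against 7000, 4643 and 3413 on the mesenchymal arrays. The epithelial arrays lay close together (SD 0.105 on the log2 scale) and above all mesenchymal arrays, of which mesenchyme 1 was the highest. The difference was 1.03 ± 0.303 (adjusted p = 0.109, interval 0.32 to 1.74) over 6 arrays. Without mesenchyme 1 it was 1.30 ± 0.223 and passed (adjusted p = 0.00888), a 2.46-fold excess in epithelium. The gene has 2 RefSeq starts 52825 bases apart, and the table does not say which transcripts each probe set reads. The second probe set read 7471, 2121 and 7068 on the epithelial arrays and 2733, 3107 and 2999 on the mesenchymal arrays, so that epithelium 2 lay below all mesenchymal arrays (0.71 ± 0.480, adjusted p = 0.567).

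Hspg2 read 2312, 2748 and 2163 on the epithelial arrays, against 2042, 2216 and 1375 on the mesenchymal arrays, and the groups overlapped. Its difference of 0.38 ± 0.311 did not pass (adjusted p = 0.551, interval -0.35 to 1.11), nor did 0.46 ± 0.297 without mesenchyme 1 (adjusted p = 0.399). Without mesenchyme 3, its lowest array, the difference was 0.17 (adjusted p = 0.826). The other Hspg2 probe set lay below the filter, at 23.3 to 75.8 on the epithelial arrays and 47.0 to 115 on the mesenchymal arrays.

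**Figure D2:**
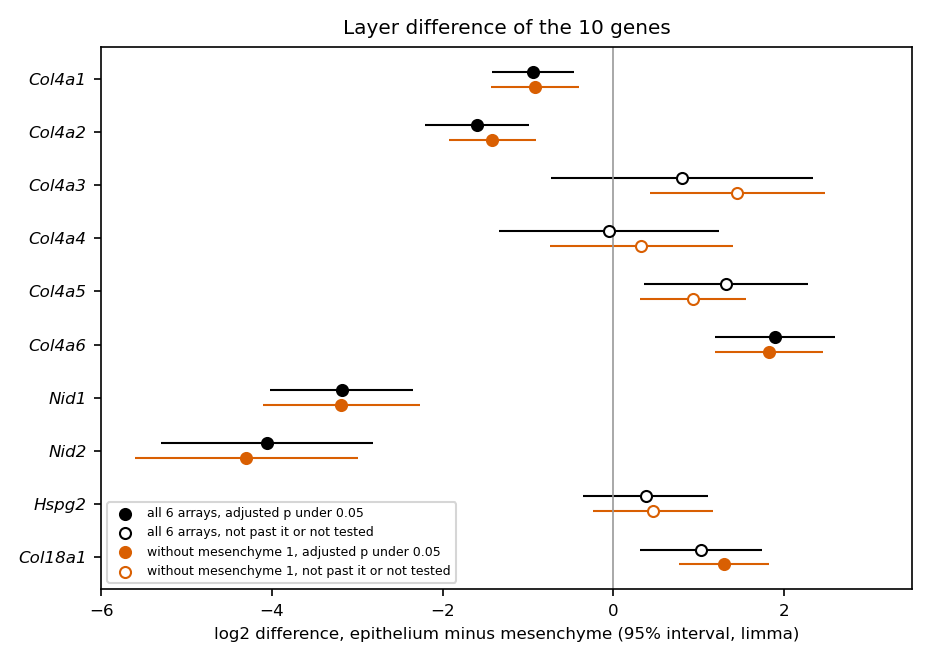
Log2 difference, epithelium minus mesenchyme, of the 10 genes with its 95% interval from limma, over all 6 arrays (black) and without mesenchyme 1 (orange). Filled points passed adjusted p 0.05 and open points did not or, for Col4a3 in both fits and Col4a4 without mesenchyme 1, were under the filter. The intervals of Nid1, Nid2, Col4a1 and Col4a2 lie below 0 and those of Col4a5, Col4a6 and Col18a1 above it, as does that of Col4a3 without mesenchyme 1.

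The 20 probe sets of the 10 genes, of which 13 lay above the filter, often differed within a gene. Col4a2 and Nid2 have 1 probe set each. Among the second probe sets above the filter, those of Col4a1, Col4a5, Col4a6 and Col18a1 had a difference of the same sign as the chosen one, and none of them passed by limma over all single-gene probe sets with 6 arrays (adjusted p = 0.608, 0.168, 0.504 and 0.567, unadjusted p under 0.05 for Col4a5 alone, at 0.0108). In that fit, which has no filter and tests each probe set, the chosen probe sets of Col4a1 (0.0829), Col4a5 (0.167) and Col18a1 (0.152) did not pass either, and that of Col4a6 did (0.0203). Without mesenchyme 1 the second probe sets gave -0.22, 1.21, 0.75 and 0.66 for Col4a1, Col4a5, Col4a6 and Col18a1, with none past the threshold (adjusted p = 0.821, 0.147, 0.588 and 0.622). Below the filter, the second probe sets of Col4a3 and Hspg2 and 1 of the other two of Col4a4 had the opposite sign to the chosen one.

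**Figure D3:**
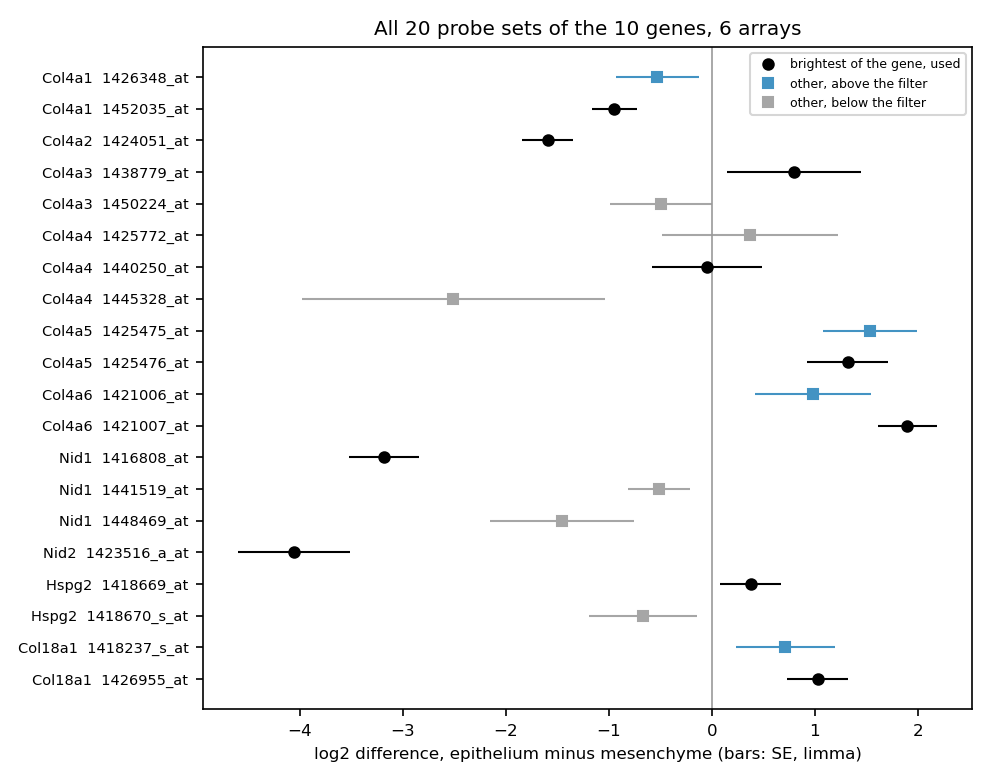
Log2 difference, epithelium minus mesenchyme, of every probe set of the 10 genes over 6 arrays, with bars of 1 SE from limma. Black circles are the brightest probe set of each gene, blue squares others above the filter and grey squares others below it. The blue squares of Col4a1 and Col4a6 lie nearer to 0 than the black circles of the same genes.

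The partners within each pair were compared by the log2 difference between the 2 genes on each array, set between layers by an exact two-sided permutation test over the arrays. With 3 arrays per layer this exact permutation test cannot go below p = 0.1, so none of the 4 pairs could pass. Col4a1 minus Col4a2 was 2.24, 1.90 and 2.22 on the epithelial arrays, against 1.13, 1.596 and 1.69 on the mesenchymal arrays. The layers did not overlap, and the means differed by 0.65 (exact permutation p = 0.1, adjusted over 4 pairs 0.2). Nid1 minus Nid2 differed by 0.88, Col4a3 minus Col4a4 by 0.85 and Col4a5 minus Col4a6 by -0.58, with overlapping layers and exact permutation p = 0.2 for each (adjusted 0.2). Col4a5 minus Col4a6 was 0.41, 0.10 and 0.12 on the epithelial arrays and 0.22, 1.03 and 1.13 on the mesenchymal arrays, where mesenchyme 1 alone overlapped the epithelial range. Without mesenchyme 1 that difference was -0.89, and with the mean of each gene's probe sets it was -0.02. Without mesenchyme 1 the differences of the other pairs were 0.50 (Col4a1 minus Col4a2), 1.13 (Col4a3 minus Col4a4) and 1.11 (Nid1 minus Nid2). Nid1 minus Nid2 was 0.47 without epithelium 5 and 0.48 with an offset of 64. It was 2.34 with the mean of probe sets, which here takes in the dim Nid1 probe sets below the filter. Col4a3 minus Col4a4 was 0.44 with an offset of 64 and 1.28 with an offset of 1.

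**Figure D4:**
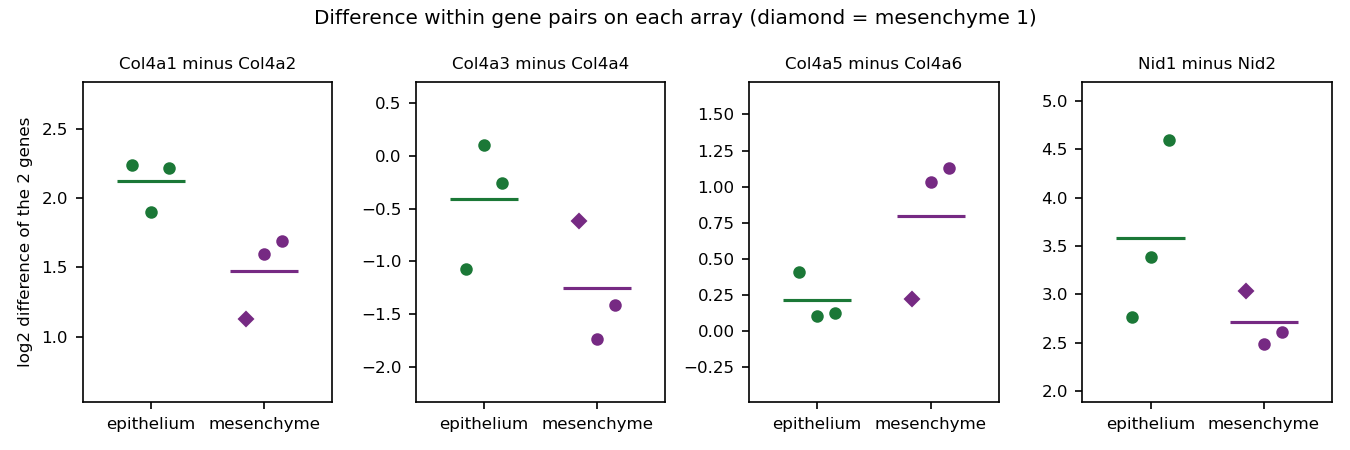
Log2 difference between the partners of each pair on each array, epithelium on the left and mesenchyme on the right, with bars at the group means (n = 3) and a diamond for mesenchyme 1. Each panel has its own vertical scale. For Col4a1 minus Col4a2 the epithelial arrays all lie above the mesenchymal ones.

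Likeness of pattern was measured as the Euclidean distance between log2 values over the 6 arrays, each gene centred on its own mean, among 13716 other genes. Mesenchyme 1 is included, and no distances without it are given. The distance also reflects the size of the layer difference, so distances and ranks of different genes are not on a common scale. For Col4a1 the nearest genes were Sgce (distance 0.273 log2 units), Thra (0.287) and Osbpl1a (0.292), and Col4a2 stood at rank 485 (0.941). For Col4a2 the nearest were Rab3a (0.410), Clock (0.413) and Anxa5 (0.446). The gene nearest to Col4a5 was Cdc42ep3 (0.259), followed by Map1b (0.271) and Smoc2 (0.346), and Col4a6 stood at rank 657 (1.03). Nearest to Col4a6 were Usp43 (0.409), Lrrc1 (0.472) and Steap2 (0.481). Nid1 was nearest to Dnm1 (0.199), She (0.373) and Kif5c (0.409), with Nid2 at rank 277 (1.75), and Nid2 was nearest to Tmem74 (0.792), Lhfpl2 (0.852) and Cd34 (0.857). Hspg2 was nearest to Clstn2 (0.246), Atmin (0.256) and Plekhn1 (0.263). Col18a1 was nearest to Eef2k (0.265), Fbxo7 (0.293) and Bahd1 (0.302), and Col4a4 to Gpx1 (0.254), Abca3 (0.298) and Atp5mpl (0.321).

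The summed markers of several other cell types, some of which make basement membrane, were also higher in mesenchyme. In such bulk samples fewer cells of a type and less RNA per cell cannot be told apart. Probe sets are not on a common scale, so the brightest genes weigh most in such sums. The 12 endothelial markers summed to 1890, 3411 and 1948 on epithelium 1, 2 and 5, against 49049, 35480 and 38881 on mesenchyme 1, 2 and 3. Aplnr alone gave 26118, 17668 and 18957 of those mesenchymal sums. Of the 11 tested endothelial markers, 0 were higher in epithelium and 5 in mesenchyme (0 and 7 without mesenchyme 1), and Tie1 was under the filter. For this and the counts that follow, 4.03% of all tested genes passed as higher in mesenchyme, and 8.16% without mesenchyme 1. The 7 pericyte markers summed to 5620 to 7544 on the epithelial arrays and 15797 to 21468 on the mesenchymal arrays (1 of 6 tested passed, 2 without mesenchyme 1), and the 7 smooth muscle markers to 5034 to 10858 and 23462 to 52980 (2 of 7 passed). Most of the smooth muscle sums was Acta2, at 4047 to 10222 on the epithelial arrays and 20290 to 38833 on the mesenchymal arrays. Striated muscle markers summed to 656 to 965 and 13032 to 125900 (5 of 6 passed), and neuronal ones to 502 to 980 and 24319 to 34278 (4 of 5 passed). Some of these markers, such as Tnnt1 (22.4 to 43.0) and Prph (13.4 to 19.15), lay below the filter level of 96.3 on every epithelial array. They were tested only because of their mesenchymal signals. The 10 markers of mesenchyme itself summed to 32537, 51607 and 44093 on the epithelial arrays, against 262470, 200880 and 208180 on the mesenchymal arrays (4 passed, 7 without mesenchyme 1). Epithelium 2 was the highest epithelial array for these and for the endothelial, pericyte, neuronal and epithelial marker sums. It was also the highest for Nid1 and Nid2 and the lowest for Col4a1 and Col4a2. Among epithelial arrays the muscle marker sums were highest on epithelium 5. With 3 arrays per layer, such orders were not tested. The 4 glial markers ran the other way in sum, at 17133 to 24635 on the epithelial arrays and 8165 to 17026 on the mesenchymal arrays. Most of that sum was Erbb3 (1.197, adjusted p = 0.0511), which passed as higher in epithelium without mesenchyme 1 (1.37, adjusted p = 0.0117). The direction of the sum is therefore that of Erbb3. Fabp7 was higher in mesenchyme (-5.09, adjusted p = 0.011), at 99.7, 11.7 and 92.1 on the epithelial arrays and 4979, 2122 and 1266 on the mesenchymal arrays. Foxd3 (-1.96, adjusted p = 0.171) and Sox10 (0.14, adjusted p = 0.886) did not pass. Of tested leukocyte and erythroid markers, 0 of 4 and 0 of 5 passed (1 and 0 without mesenchyme 1). The part of these cell types in the differences of the nidogens, Col4a1 and Col4a2 was not tested.

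The genes that build, bind and cut these proteins were taken from 5 lists, and the background for their counts is again 1.95% of all tested genes for epithelium and 4.03% for mesenchyme over 6 arrays, and 6.36% and 8.16% without mesenchyme 1. Named genes have their values over 6 arrays unless stated. Of 18 tested genes that modify, fold, export or cross-link collagen, 0 were higher in epithelium and 4 in mesenchyme (median -0.25, and again 0 and 4 without mesenchyme 1). The 4 were the collagen galactosyltransferase Colgalt2 (-2.68 ± 0.517, adjusted p = 0.0282), the lysyl hydroxylase Plod1 (-2.42), and P3h1 (-1.86) and Crtap (-1.19), which act in 1 prolyl hydroxylation complex. P3h2, named after its values were seen, had the largest difference of the list (-2.75 ± 0.998) but did not pass (adjusted p = 0.184). Which collagens these gene products act on in these layers was not tested. Plod1 read 96.3, 141 and 95.9 on the epithelial arrays, against 728, 577 and 666 on the mesenchymal arrays. Colgalt2 read 40.8, 33.2 and 107 on the epithelial arrays, against 555, 425 and 339 on the mesenchymal arrays. On epithelium 1 and 2 it lay below the filter level of 96.3. The filter takes the mean over both layers, so a gene can pass it through its brighter layer. Leaving out another array lowered the count to 0 (epithelium 1, mesenchyme 2 or mesenchyme 3), 1 (epithelium 5) or 2 (epithelium 2).

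Of 14 tested receptors, 0 were higher in epithelium and 4 in mesenchyme (median -0.53; 2 and 5 without mesenchyme 1). Itga1, the alpha subunit of a collagen IV integrin, differed by -2.24 ± 0.344 (adjusted p = 0.0136) and the discoidin collagen receptor Ddr2 by -3.06 ± 0.595 (adjusted p = 0.0287). The other two, Cd93 (-4.31) and the VEGF receptor Kdr (-4.03), are known from endothelium, and Kdr is also among the endothelial markers above. The calls added without mesenchyme 1 were Itga3 (1.43) and Dag1 (1.11), higher in epithelium, and Nrp1 (-2.51), higher in mesenchyme, which are named after their values were seen. The count of 4 fell to 1 without epithelium 1, mesenchyme 2 or mesenchyme 3, and to 0 without epithelium 5.

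Of 22 tested binding partners, 2 were higher in epithelium and 3 in mesenchyme (median -0.26; 4 and 7 without mesenchyme 1). Col15a1, the close relative of Col18a1, read 128, 199 and 150 on the epithelial arrays, against 1624, 1071 and 961 on the mesenchymal arrays. Its difference of -2.80 ± 0.379 (adjusted p = 0.00944) was opposite in sign to that of Col18a1. Among the laminin alpha chains Lama3 was higher in epithelium (3.77), and Lama2 (-3.26) and Lama4 (-5.04) were higher in mesenchyme. Lama5, the second gene higher in epithelium (2.35 ± 0.395, adjusted p = 0.0174), and Lamc1, the chain that binds nidogen, are named after their values were seen, and Lamc1 did not pass (0.75 ± 0.344, adjusted p = 0.286). Also so named are Lamb3 (4.27) and Col7a1 (1.73), which passed as higher in epithelium without mesenchyme 1, and Fbln2 (-1.43), Sparc (-1.25), Ecm1 (-1.65) and Hmcn1 (-2.78), which then passed as higher in mesenchyme. In the normalization of 6 arrays Lamb3 read 6.1 and 66.9 on mesenchyme 2 and 3, below the filter level of 96.3. Leaving out any 1 array other than mesenchyme 1 brought the 2 genes higher in epithelium to 0. The 3 higher in mesenchyme became 0 without mesenchyme 2, and 1 without epithelium 1 or epithelium 5.

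Of 15 tested enzymes of heparan sulfate, 1 was higher in epithelium and 0 in mesenchyme (median 0.07; 1 and 1 without mesenchyme 1). It was the sulfotransferase Hs6st1, at 2722, 1455 and 3249 on the epithelial arrays, against 481, 631 and 583 on the mesenchymal arrays (2.03 ± 0.388, adjusted p = 0.027). The brightest others were the sulfatases Sulf2 (-0.63, adjusted p = 0.221) and Sulf1 (0.19, 0.808). Of 11 tested proteases, 0 were higher in epithelium and 1 in mesenchyme (median -0.32; 1 and 1 without mesenchyme 1). It was Adamts4 (-3.20 ± 0.691, adjusted p = 0.041), and the brightest, Mmp2 (-1.19, adjusted p = 0.118) and Ctsl (-0.32, 0.77), did not pass. Adamts4 read 15.2, 141 and 85.5 on the epithelial arrays, against 1215, 523 and 570 on the mesenchymal arrays. On epithelium 1 and 5 it lay below the filter level of 96.3. Hs6st2 (-1.88) and the matrix metalloprotease Mmp7 (3.71), also chosen after their values were seen, passed without mesenchyme 1. The call of Hs6st1 ended without epithelium 1, epithelium 5, mesenchyme 2 or mesenchyme 3, and that of Adamts4 when any array but mesenchyme 1 was left out, with an offset of 1, without the filter and with the filter at the 60th percentile.

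**Figure D5:**
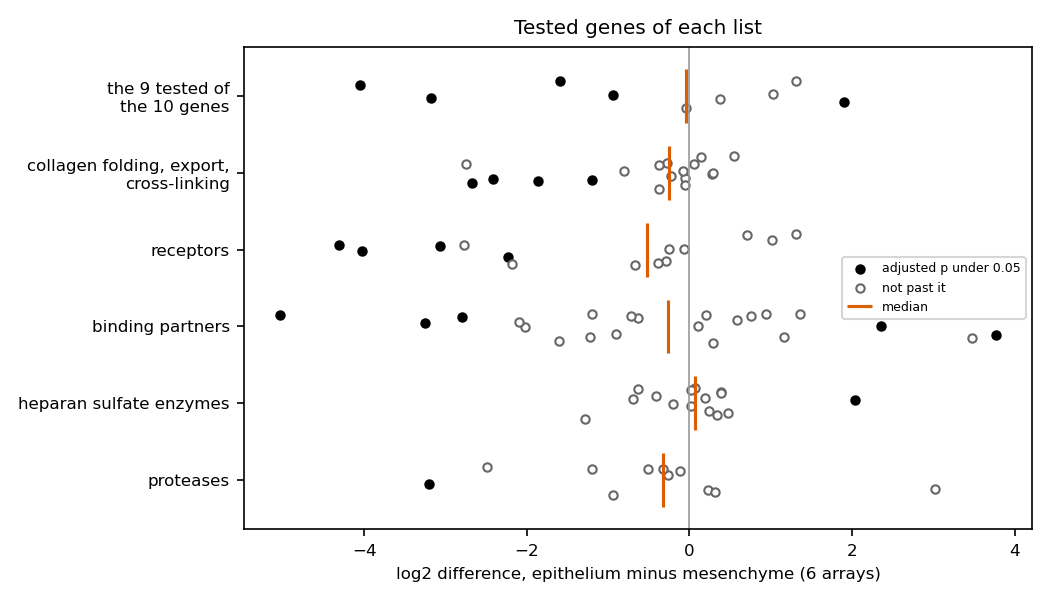
Log2 difference, epithelium minus mesenchyme, over 6 arrays for the 9 tested of the 10 genes and the tested genes of 5 lists. Each point is a gene, filled where it passed adjusted p 0.05, and orange bars are medians. Filled points of the collagen-modifying and receptor lists all lie below 0.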

How the data were processed

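The members, gene lists and tests were chosen with earlier results of these data known. The authors deposited 1 intensity (signal) per probe set and array. GCOS, software for Affymetrix arrays, is listed per the submitters' processing notes, without version or settings. The mean deposited intensity, with 2% trimmed at each end, was 1500 on every array. No detection calls were used, so dim signals have no bound. Of 45101 probe sets, 64 controls were left out and 34945 of the others name 1 gene by the platform annotation; 34754 of 34958 single-gene entries matched RefSeq (GRCm38.p6), which changed 0 symbols. Values were taken as log2(signal + 16), which understates changes of dim genes, and quantile normalized. Probe sets with a mean above the 40th percentile were kept and the brightest represented its gene. limma 3.58.1 (R 4.3.3) compared the layers by lmFit and eBayes with a trend and no covariate, after a check on simulated data. The simulated noise was independent and of equal spread on all arrays, so the check did not cover an array like mesenchyme 1. Normalization, filter and probe set choice were redone without mesenchyme 1. Alternatives were other offsets, scalings, filters, probe sets, variance models, array weights, a block for the replicate number, and fits that each leave out 1 array. Named genes are the 10 members, in each list the up to 4 passing genes that differed most, the 2 brightest where fewer than 2 passed, and the 3 nearest genes of each member. The number of arrays limits the precision.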

Additional observations from a re-analysis of the deposited data

How the results depend on the processing

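Over 6 arrays limma called 820 genes, 5108 with array quality weights and 146 to 1973 with 1 array left out. Of the 10 genes, 1 passed as higher in epithelium, against 0 with median centring or with probe sets averaged per gene (2 and 3 at an unadjusted p under 0.05), 4 with array quality weights and 0 to 2 with 1 array left out. As higher in mesenchyme 4 passed, against 2 with median centring (Nid1 and Nid2) and 1 to 4 with 1 array left out. None of the called differences changed sign under these alternatives or on another probe set. The calls of Col4a1, Col4a2 and Col4a6 ended in 6, 2 and 3 of 12 other processings and that of Nid1 in 1; Nid2, which has no probe set of the unique kind, lost it in 1 of 11. Array quality weights brought Col4a5, Hspg2, Col18a1 and, in the fit without a filter, Col4a3 past the threshold. With the replicate block limma called 0 genes (1457 at an unadjusted p under 0.05) and 0 of the 10 genes in either direction (2 and 4 at an unadjusted p under 0.05), with 1 residual degree of freedom. Deviations of same-numbered arrays from their layer correlated at r = -0.0452 and -0.0207 across genes, and those of differently numbered arrays at -0.084 to 0.0633. With 3 arrays per layer these values cannot decide whether same-numbered arrays share an embryo. The number is not taken to pair them because no label says that it does. Median centring moved the median of all genes to 0.23, and with the median of 0.12 subtracted the 5 called differences were -4.18 to 1.78 with the same signs. Col4a4 was under the filter without epithelium 1, epithelium 5 or mesenchyme 1, with an offset of 64 and at the 60th percentile, and was not tested in those filtered fits. Fits with an array left out have fewer samples, though without mesenchyme 1 the number of called genes rose to 1973. The part of sample number in the lower counts was not tested. The alternatives for pairs were chosen after seeing the data, and the sign of none of the 4 pair differences changed.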
